A study of Mus musculus with 2 samples.

Results

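Neutrophils that carried the transcript of Il1f9, the gene of the cytokine IL-36 gamma, were studied in immune cells of mouse tumours, from 2 libraries of single-cell RNA. A cell barcode counted as a member when it passed a filter (at least 200 detected genes and at most 10% of its UMIs from mitochondrial genes) and met 6 conditions on its raw UMIs, the unique molecular identifiers that each count 1 captured RNA molecule. At least 3 of the 7 neutrophil genes S100a8, S100a9, Csf3r, G0s2, Cxcr2, Il1r2 and Slpi had to be detected, with at least 1 UMI of Il1f9. No UMI of Retnlg or Stfa2l1 was allowed, at most 1 of the T cell genes Cd3e, Cd3d and Cd3g together, at most 2 of the macrophage genes C1qa, C1qb and C1qc together, and none of the B cell gene Cd79a. The rule found 198 members among 11500 barcodes, 144 in the library KP and 54 in the library KPT. The members were thus chosen by the measured UMIs of these genes, whose levels in them are given as a description only.

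Both libraries came from subcutaneous KP tumours grown in mice and taken on day 14 after inoculation. The label KP is not spelled out in the sources used here, and the series title concerns thymine DNA glycosylase in p53-deficient cancer. The group KP carries the genotype label WT and the group KPT the label Tdg KO, a knockout of the gene of that enzyme, which removes thymine mispaired with guanine and takes part in active DNA demethylation. The labels do not say whether the tumour cells, the host or both carry the genotype, nor how many mice were used. Immune cells were taken from dissociated tumours over Percoll, and live cells bearing CD45, a surface protein of white blood cells, were sorted. With 1 library per group no test between the groups was possible, and every interval covers counting error only. Tdg itself had 7 UMIs in 5 of the KP members and 0 in the KPT members, whose floor of 3 counts stands at 15.2 CPM. CPM is the gene's UMIs over all UMIs of the cells, times 1000000. With so few UMIs, no lower level of Tdg in the KPT members is read from these counts. In all filtered barcodes it stood at 25.1 CPM in KP and 26.5 CPM in KPT, and the labels do not give the deleted part of the gene, so these reads near RNA 3′ ends do not check the genotype.

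IL-36 gamma belongs to the IL-1 family, whose members are made by myeloid and epithelial cells and signal through paired receptors to start NF-kB responses. Neutrophils in tumours are known to express other genes than those in blood, among them genes of hypoxia, glycolysis, chemokines and IL-1 cytokines. The hypoxia-inducible factors (HIF) switch cells to glycolysis when oxygen is low, by binding short motifs in promoters of glycolytic enzymes and other targets.

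Of 15 listed neutrophil markers, 9 were used by the rule, and 6 were not. Clec4d, a lectin receptor of myeloid cells, was detected in 125 of 144 KP and 45 of 54 KPT members. Acod1, which makes itaconate in activated myeloid cells, was found in 104 and 46, Trem1, an amplifying receptor of neutrophils and monocytes, in 80 and 37, Hdc, histidine decarboxylase, in 77 and 31, and the gelatinase Mmp9 in 62 and 33. T cell barcodes (at least 3 UMIs of Cd3e, Cd3d and Cd3g together and fewer than 3 of the 7 neutrophil genes) numbered 2800 in KP and 3437 in KPT, at median depths of 6489 and 7567 UMIs against 2355.5 and 2954 in the members. Among them Clec4d was found in 3.18% and 4.07%, Acod1 in 3.50% and 4.95%, Trem1 in 2.25% and 3.67%, Hdc in 3.04% and 3.93% and Mmp9 in 4.64% and 3.99%. The sixth, the surface marker Ly6g, had 3 UMIs in the KP members and 0 in the KPT members, which allows up to 3 counts in the 198006 UMIs of the KPT members. Siglecf, which labels a class of tumour neutrophils as well as eosinophils, had 9 and 17 UMIs in 8 members of each library. The label also calls these cells adapted to the tumour, which cannot be checked without neutrophils of another tissue.

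Some members carried transcripts of other cell types. Of 77 marker genes of 9 other cell classes, 49 had a UMI in the KP members and 39 in the KPT members, with 553 and 1325 UMIs in all and a median of 2 per barcode in each library. In 8 KP and 8 KPT members they reached at least 10 UMIs, and these 16 are called mixed barcodes below. They had a median of 3600.5 UMIs in KP and 9836.5 in KPT, and held 11.4% of the UMIs of the KP members but 35.5% of those of the KPT members. Dendritic cell markers showed the widest gap, 156 UMIs in KP with Flt3, Zbtb46, Xcr1, Cd209a and Siglech at 0, and 1025 in KPT with Xcr1, Clec9a and Ccr7 at 0. A single KPT barcode held 757 of them. NK cell markers gave 125 and 156 UMIs, and without the mixed barcodes 22 and 5. No doublets were removed, so ratios between the libraries are given for all members and without the mixed barcodes, a split chosen after the data were seen. CPM values are of all members.

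**Figure D1:**
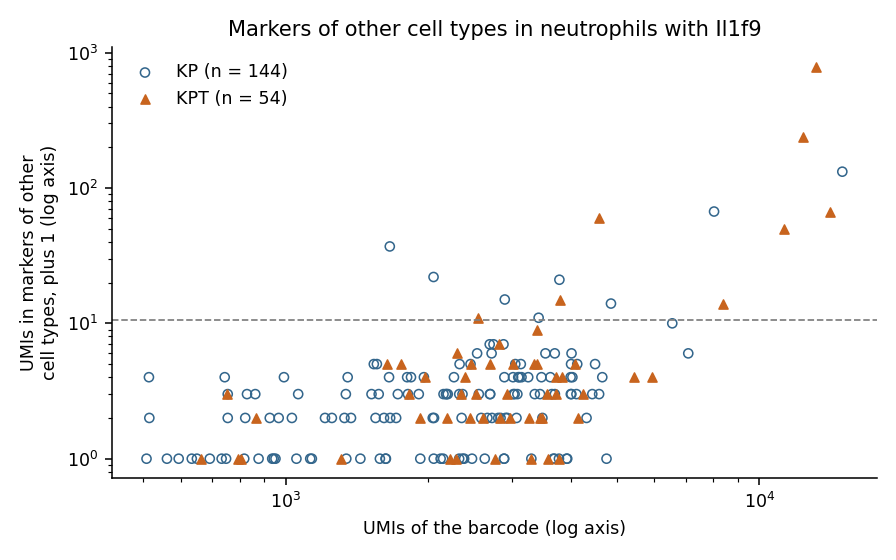
Each point is 1 neutrophil barcode with Il1f9, with its total UMIs on the horizontal log axis and the UMIs of marker genes of 9 other cell classes, plus 1, on the vertical log axis; circles are KP and triangles KPT. Points above the dashed line, 8 in each library, are the mixed barcodes, which reach 14968 UMIs in KP and 14117 in KPT.

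Around the limits of the rule, 42 of the KP members and 16 of the KPT members had exactly 1 Il1f9 UMI, at a median of 1625.5 and 2639.5 UMIs per barcode. Neutrophil barcodes without any Il1f9, Retnlg or Stfa2l1 UMI had medians of 2099 and 1958. Exactly 3 of the 7 neutrophil genes were detected in 27 KP and 8 KPT members, and 11 and 6 barcodes that met every other condition had only 2. A single UMI of Retnlg or Stfa2l1 kept out 23 KP and 9 KPT barcodes. Il1f9 was unevenly spread, with up to 46 UMIs in a KP and 67 in a KPT barcode, and the 10 barcodes with most of it held 34.0% of the Il1f9 UMIs of the KP members and 64.4% of those of the KPT members.

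Neutrophils with Il1f9 made up a smaller share of the KPT library. They were 144 of 5504 barcodes (2.62%, 95% interval 2.21 to 3.07%) that passed the filter in KP and 54 of 5693 barcodes (0.949%, 95% interval 0.713 to 1.24%) in KPT, with exact Clopper-Pearson intervals. The ratio of the shares, KPT over KP, was 0.363 (0.266 to 0.495), and 0.327 (0.235 to 0.456) without the mixed barcodes. Other neutrophil barcodes stood in like proportion. Those with Retnlg or Stfa2l1, which code for a resistin-like secreted protein and a stefin and mark neutrophils closer to those of blood, numbered 167 in KP and 43 in KPT, a ratio of shares of 0.249 (0.178 to 0.347). Neutrophil barcodes with neither Il1f9 nor these 2 genes numbered 261 and 88, a ratio of 0.326 (0.257 to 0.414). Among all neutrophil barcodes the members were 25.2% of 572 in KP and 29.2% of 185 in KPT, a ratio of 1.16 (0.889 to 1.51) whose interval holds 1. All neutrophil barcodes together were 10.4% of the KP and 3.25% of the KPT barcodes, a ratio of 0.313 (0.266 to 0.368), and differences between the 3 sets were not tested. The shares are of sorted cells that were captured, and tissue numbers were not measured.

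**Figure D2:**
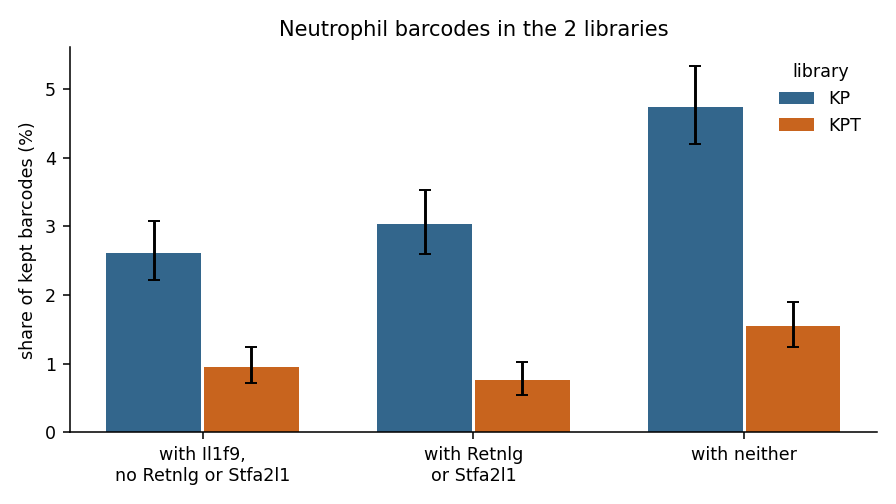
Bars give the share of filtered barcodes (%) in KP and KPT for the 3 sets of neutrophil barcodes, with exact Clopper-Pearson 95% intervals for counting error. All 3 sets are lower in KPT, and the share with Il1f9 is 2.62% in KP and 0.949% in KPT.

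A few transcripts filled much of the members' RNA. Fth1, the heavy chain of the iron store ferritin, held 60082 CPM in KP and 38479 CPM in KPT. Cxcl2, a chemokine that draws neutrophils through Cxcr2, stood at 54273.5 and 36625 CPM, and Il1b, the cytokine released after inflammasome cleavage, at 15711 and 14009.7 CPM. All members had a Fth1 UMI, 135 KP and 50 KPT members had Cxcl2, and 139 and 52 had Il1b. Cxcl2 was also found in 23.6% and 21.1% of T cell barcodes, where it stood at 399.9 and 564 CPM. Il1f9 lies on chromosome 2, 24186476 to 24193568, of the GENCODE annotation of GRCm38, on the same chromosome as Il1rn (24336853 to 24351494), Il1b (129364570 to 129371139) and Il1a (129299610 to 129309972).

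Set beside the neutrophils with Retnlg or Stfa2l1, the members were described by the 12 genes with the highest and the 12 with the lowest ratio in both libraries. The sets were cut on related genes, so these ratios carry no test. In KP the other set had a median of 544 genes and 0.123% of UMIs from the noncoding RNA Malat1, against 809.5 and 2.02% in the members. In KPT it had 776 genes and 1.62%, against 993 and 2.45%. Mixed barcodes held 19.8% of its UMIs in KP and 42.7% in KPT. The part of these differences in the ratios was not tested. Creg1, a lysosomal glycoprotein, headed the higher genes, with a ratio of members over the other set of 2.73 in KP and 2.15 in KPT. Gclm, a subunit of the enzyme that limits glutathione synthesis, gave 1.98 in KP and 3.37 in KPT, and Blvrb, biliverdin reductase B, 1.77 in KP and 6.47 in KPT. C3, the central complement protein, gave 2.01 in KP and 3.18 in KPT, and F10, coagulation factor X, 1.96 in KP and 9.38 in KPT. Icam1, an adhesion molecule induced by NF-kB, gave 2.76 in KP and 1.81 in KPT, and Mmp9, a gelatinase of neutrophil granules, 2.15 in KP and 1.87 in KPT. The remaining 5 were Clec4n, Txnip, Ptpn6, Jun and Tnfaip2, with ratios from 1.68 (Tnfaip2 in KPT) to 3.03 (Txnip in KPT). Lower in the members were Cstdc4, a stefin A gene (0.150 in KP, with 2 UMIs in the KPT members), Lmnb1, lamin B1 (0.358 in KP and 0.411 in KPT), Ccl6, a chemokine of myeloid cells (0.444 in KP and 0.209 in KPT), and Ifitm3, an interferon-induced membrane protein (0.643 in KP and 0.369 in KPT). Cstdc4 belongs to the same family of near-identical stefin genes as Stfa2l1, which the rule barred, so how its reads were assigned is uncertain. Ldha, the lactate dehydrogenase subunit A of glycolysis, was in this lower group at 0.603 in KP and 0.656 in KPT, as were Crip1, Odc1, Tagln2, Ahnak, Eif5a, Thbs1 and Eef1b2. Without the mixed barcodes, the 12 higher genes had ratios from 1.55 (Blvrb in KP) to 8.29 (Blvrb in KPT). Of the 12 lower genes, the ratios of Odc1 in KPT (5.41) and of Ahnak in KP (1.32) moved above 1, and the others stayed below.

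Of the other genes said to mark these cells, none was higher than in the neutrophils with Retnlg or Stfa2l1 in both libraries. Slpi, a secreted inhibitor of neutrophil elastase, stood at 1.65 times their level in KP and 0.862 times in KPT. Il1a, an IL-1 cytokine active without cleavage, stood at 2.52 and 0.782 times. Cxcl3, a chemokine close to Cxcl2, stood at 0.864 and 0.727 times, and G0s2, an inhibitor of triglyceride lipase, at 0.630 and 0.743 times. Without the mixed barcodes the ratios were 1.49 and 0.815 for Slpi, 2.08 and 0.820 for Il1a, 0.837 and 0.676 for Cxcl3, and 0.632 and 0.655 for G0s2. Against neutrophil barcodes with neither, Slpi was higher in both libraries, 9.28 and 6.81 times, and Cxcl3 2.03 and 1.38 times, or 7.14 and 10.8 times and 1.37 and 1.22 times without mixed barcodes. Il1a and G0s2 are not given against this set, and in KPT they were not both higher than in it. The markers as a group are thus not called higher than in this set. Each of these other markers was seen in part of the members. Slpi was detected in 109 KP and 36 KPT members, G0s2 in 82 and 30, Il1a in 81 and 24, and Cxcl3 in 67 and 20. In T cell barcodes these genes were found in 3.61% and 3.52% (Slpi), 0.964% and 0.786% (G0s2), 2.14% and 4.48% (Il1a) and 3.39% and 3.03% (Cxcl3).

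Detection of 5 gene pairs was compared at equal depth, with no test. After each barcode was thinned to 1000 UMIs, which left out 24 KP and 5 KPT members below that depth, Il1a was detected in 66.7% of the 54 KP members with Cxcl3 (95% interval 52.5 to 78.9%) and in 39.4% of the 66 without it (27.6 to 52.2%). In KPT the shares were 26.7% of 15 (7.79 to 55.1%) and 38.2% of 34 (22.2 to 56.4%), where the intervals overlap. The other 4 pairs hold genes of the rule, and every member had Il1f9 before thinning. For Il1a with and without Il1f9 the shares were 50.6% and 54.3% in KP, and 36.8% and 27.3% in KPT. For Cxcl3 with and without Il1f9 the shares were 45.9% and 42.9% in KP, and 31.6% and 27.3% in KPT. For Slpi with and without Il1f9 the shares were 80% and 54.3% in KP, and 63.2% and 36.4% in KPT. For Il1f9 with and without S100a8 the shares were 74% and 55% in KP, and 78.7% and 50% in KPT. The groups without the first gene held 35, 35, 35 and 20 barcodes in KP and 11, 11, 11 and 2 in KPT. Without thinning, Il1a was detected in 56.2% of the KP and 44.4% of the KPT members. The 7 neutrophil genes of the rule together took from 0.0997% to 46.1% of a KP member's UMIs, with a median of 4.30%, and from 0.159% to 20.8% of a KPT member's, with a median of 3.59%. Cxcl2 alone ranged from 0 to 22.9% in KP (median 3.43%) and to 12.6% in KPT (median 3.47%), and single barcodes of both libraries overlap widely.

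To compare the libraries, UMIs were summed over the members of each, divided by their total (CPM) and set as the ratio KPT over KP with an exact conditional Poisson 95% interval. Of the 1423 genes with at least 50 UMIs in both libraries together, 216 (15.2%) were at least 1.5-fold higher in KPT and 162 (11.4%) at least 1.5-fold lower. Without the mixed barcodes, of the 1141 genes that reached 50 UMIs, 98 (8.59%) were higher and 109 (9.55%) lower. Of the 216 higher genes, 45 were also among the 98, which is 20.8% of the first and 45.9% of the second. Of the 162 lower genes, 74 were also among the 109, 45.7% and 67.9%. The median log2 ratio over all genes was 0.03, and 0.02 without the mixed barcodes.

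The genes that led the higher side in KPT rested on few barcodes. H2-Aa, a class II histocompatibility chain of antigen-presenting cells, stood at 24.7 CPM in KP and 1121 CPM in KPT, a ratio of 45.4 (95% interval 23.5 to 101), and 1 barcode held 73.9% of its KPT UMIs. Its ratio without the mixed barcodes was 3.16 (1.12 to 9.21). Cd74, the invariant chain of the same complex, stood at 282 and 2081 CPM, with 73.8% of the KPT UMIs in 1 barcode, and its ratio went from 7.37 (5.92 to 9.23) to 0.960 (0.609 to 1.48). H2-Aa, H2-Ab1, H2-Eb1 and Cd74 are among the marker genes whose UMIs define the mixed barcodes. Leaving those barcodes out thus lowers these genes in part by the choice itself. Hspa1a, an inducible heat shock protein, had 148 UMIs in KPT, of which 1 barcode held 98.6%, and Xcl1, a chemokine of NK and T cells, had 153, of which 1 barcode held 85.6%. Without mixed barcodes the ratio of Xcl1 was 0.281 (0.00641 to 2.03), and that of Ccl5, a chemokine of T and NK cells, 0.722 (0.239 to 1.85). The 12 genes the rule named were completed by H2-Eb1, H2-Ab1, Rgs1, Bst2, Dnajb1, S100a4 and Hsp90ab1, and without the mixed barcodes H2-Aa alone of the 12 had an interval wholly above 1. Heat shock genes gave a median log2 ratio of 1.69 for 8 genes, of which 6 were at least 1.5-fold higher, and 0.50 over 5 genes without the mixed barcodes, of which 1 was. Among all genes 15.2% were at least 1.5-fold higher, and 8.59% without the mixed barcodes. Within the heat shock list, Hsp90aa1, a cytosolic chaperone, had a ratio of 2.33 (1.87 to 2.91), or 1.55 (1.15 to 2.09) without mixed barcodes.

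**Figure D3:**
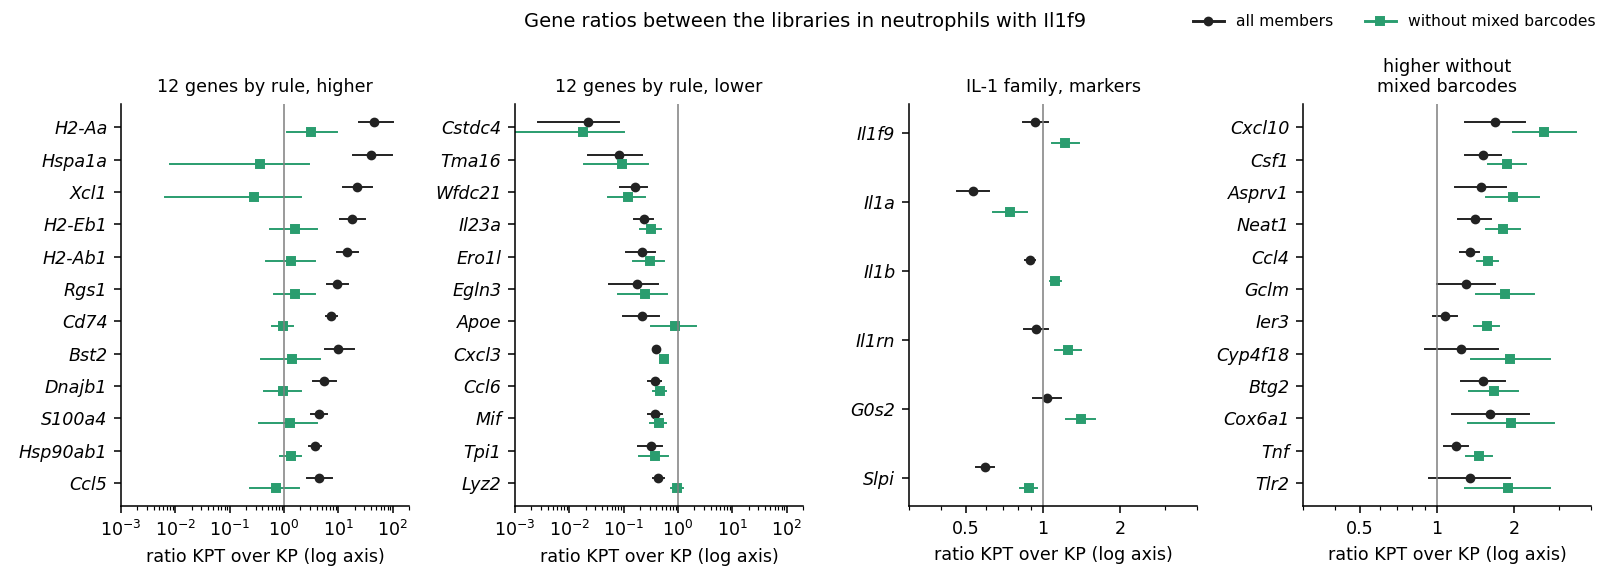
Points are ratios of CPM, KPT over KP, on log axes with exact conditional Poisson 95% intervals for counting error, for all members (circles) and without the mixed barcodes (squares); panels hold the 12 genes the rule named as higher, the 12 as lower, 6 genes of the IL-1 family and markers, and the 12 named as higher without the mixed barcodes. In the first panel only H2-Aa has an interval wholly above 1 without the mixed barcodes, and Cxcl3 in the second panel goes from 0.400 to 0.542; the lower bound of Cstdc4 without the mixed barcodes lies off the axis.

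Another 12 genes were named by the same rule without the mixed barcodes, a choice made after the data were seen. Csf1, the growth factor of macrophages, was found in most members. It stood at 910.5 CPM in KP and 1379 CPM in KPT and was detected in 82 of 144 KP and 43 of 54 KPT members, with 4.82% and 7.33% of its UMIs in the fullest barcode. T cell barcodes held it in 11.7% and 11.6%. Its ratio was 1.51 (1.29 to 1.78), or 1.88 (1.59 to 2.24) without mixed barcodes. Neat1, a nuclear noncoding RNA, had 1.41 (1.21 to 1.63), or 1.81 (1.55 to 2.12) without mixed barcodes. Ccl4, a chemokine for T cells and monocytes, had 1.34 (1.23 to 1.47), or 1.58 (1.44 to 1.74) without mixed barcodes. Gclm had 1.30 (1.01 to 1.68), or 1.85 (1.42 to 2.40) without mixed barcodes, and Btg2, an antiproliferative early response gene, 1.51 (1.24 to 1.84), or 1.66 (1.33 to 2.08) without mixed barcodes. Tnf, the inflammatory cytokine, had 1.19 (1.07 to 1.32), or 1.46 (1.30 to 1.64) without mixed barcodes. Cxcl10, an interferon-induced chemokine for T cells, had the highest ratio of the 12, 1.69 (1.29 to 2.21), or 2.63 (1.98 to 3.50) without mixed barcodes. It rested on few cells, since it was detected in 15 KP and 7 KPT members and 1 barcode held 69.5% and 62.0% of its UMIs. T cell barcodes, which were deeper, held it in 10.0% and 14.6%, so no expression is read from the share of members with a UMI. Asprv1, Ier3, Cyp4f18, Cox6a1 and Tlr2 completed the group, with ratios from 1.56 (Ier3) to 1.97 (Asprv1) without the mixed barcodes.

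Ldha and Pgk1, taken up with their list, were named as lower in KPT only without the mixed barcodes. Among the 12 genes named as lower in KPT over all members were Tpi1, Egln3, Ero1l, Mif and Cxcl3, also taken up with their lists. Cstdc4, the first, had 168 UMIs in 25 KP members and 2 in 2 KPT members, a ratio of 0.0219 (0.00263 to 0.0804), or 0.0179 (0.000451 to 0.102) without mixed barcodes, with the doubt on its counting given above. Tma16, a factor of ribosome assembly, had 0.0828 (0.0221 to 0.219), or 0.0925 (0.0187 to 0.280) without mixed barcodes. Wfdc21, a secreted protein of the whey acidic protein family, was found in 40 and 7 members, with a ratio of 0.159 (0.0870 to 0.269), or 0.120 (0.0511 to 0.243) without mixed barcodes. Il23a, the p19 subunit of IL-23, stood at 606 CPM in KP and 141 CPM in KPT, in 34 and 9 members. Its ratio was 0.233 (0.152 to 0.347), or 0.313 (0.196 to 0.479) without mixed barcodes. Ccl6 had 0.370 (0.284 to 0.477), or 0.458 (0.346 to 0.600) without mixed barcodes. Apoe and Lyz2, lipid transport and lysozyme genes of macrophages, had ratios of 0.221 (0.0973 to 0.442) and 0.432 (0.344 to 0.539) with the mixed barcodes and 0.885 (0.316 to 2.18) and 0.944 (0.726 to 1.22) without. Apoe is itself among the marker genes whose UMIs define the mixed barcodes. Cybb, the catalytic subunit of the phagocyte oxidase, was named without the mixed barcodes and had 0.460 (0.271 to 0.750), or 0.296 (0.130 to 0.591) without mixed barcodes.

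Genes of the glycolysis list, enzymes and transporters, were lower in the KPT members as a group. Of 23 listed genes 11 reached 50 UMIs. Of these, 6 were at least 1.5-fold lower and 0 higher, where 11.4% of all genes were lower. The median log2 ratio was -0.66 against 0.03 over all genes, and -0.68 without the mixed barcodes, where 7 of 11 were lower against 9.55% of all genes. All 11 are given, first the enzymes in the order of the pathway and then the transporters of glucose and lactate. Gpi1, glucose phosphate isomerase, had a ratio of 0.702 (0.419 to 1.14), or 0.632 (0.316 to 1.18) without mixed barcodes, and Aldoa, aldolase A, stood at 1097 CPM in KP and 732 CPM in KPT, a ratio of 0.668 (0.548 to 0.809), or 0.811 (0.656 to 0.998) without mixed barcodes. Tpi1, triose phosphate isomerase, stood at 304 and 96.0 CPM, a ratio of 0.315 (0.183 to 0.516), or 0.369 (0.194 to 0.649) without mixed barcodes. Gapdh, the next enzyme, stood at 1670.1 and 1056 CPM, a ratio of 0.632 (0.538 to 0.741), or 0.624 (0.513 to 0.755) without mixed barcodes. Pgk1, phosphoglycerate kinase, stood at 307 and 136 CPM, a ratio of 0.444 (0.280 to 0.681), or 0.332 (0.171 to 0.594) without mixed barcodes. Pgam1 and Eno1, the mutase and the enolase that follow, had 0.582 (0.420 to 0.794) and 0.493 (0.342 to 0.696), or 0.553 (0.372 to 0.801) and 0.530 (0.345 to 0.791) without mixed barcodes. Pkm, pyruvate kinase, had 0.729 (0.596 to 0.889), or 0.827 (0.658 to 1.03) without mixed barcodes. Ldha stood at 633 CPM in KP and 263 CPM in KPT and was detected in 76 and 23 members, a ratio of 0.415 (0.301 to 0.562), or 0.370 (0.243 to 0.545) without mixed barcodes. The glucose transporter Slc2a1 had 0.806 (0.458 to 1.37), or 1.21 (0.682 to 2.07) without mixed barcodes, and the lactate exporter Slc16a3 0.794 (0.586 to 1.07), or 1.01 (0.741 to 1.37) without mixed barcodes. In T cell barcodes Ldha stood at 611 CPM in KP and 554 CPM in KPT.

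HIF targets outside glycolysis were lower as well. Of 12 genes with at least 50 UMIs, 7 were at least 1.5-fold lower and 0 higher, where 11.4% of all genes were lower. The median log2 ratio was -0.60 against 0.03 over all genes. Without the mixed barcodes 7 of 11 were lower against 9.55% of all genes, and the median was -1.01 against 0.02. At a minimum of 200 UMIs 3 genes were left, with a median of -0.05. Egln3, a prolyl hydroxylase that marks HIF for breakdown and is itself a target, stood at 145 CPM in KP and 25.3 CPM in KPT, found in 30 and 3 members, a ratio of 0.174 (0.0542 to 0.431), or 0.248 (0.0772 to 0.617) without mixed barcodes. Ero1l, an oxidase of protein folding, stood at 307 and 65.7 CPM, a ratio of 0.214 (0.110 to 0.381), or 0.300 (0.150 to 0.548) without mixed barcodes. Bnip3 and Bnip3l, receptors for the removal of mitochondria, had 0.413 (0.194 to 0.806) and 0.397 (0.238 to 0.634), or 0.562 (0.252 to 1.13) and 0.440 (0.241 to 0.753) without mixed barcodes. Mif, the cytokine macrophage migration inhibitory factor, had 0.384 (0.285 to 0.510), or 0.436 (0.309 to 0.603) without mixed barcodes. Hilpda, a lipid droplet protein, had 0.660 (0.443 to 0.965), or 0.495 (0.286 to 0.816) without mixed barcodes. Bhlhe40, a repressor of transcription, had 1.17 (0.917 to 1.48), or 0.822 (0.591 to 1.13) without mixed barcodes, and Anxa2, a membrane-binding annexin, 0.966 (0.747 to 1.24), or 1.05 (0.778 to 1.40) without mixed barcodes. Vegfa, the vascular growth factor, had 1.46 (0.927 to 2.28), or 0.484 (0.209 to 0.999) without mixed barcodes, and 1 barcode held 52.6% of its KPT UMIs. Hif1a itself had 0.877 (0.548 to 1.38), or 0.768 (0.418 to 1.34) without mixed barcodes.

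The difference was also seen in the median barcode. Glycolysis and HIF target genes together took a median of 0.940% of a KP member's UMIs (quartiles 0.663 and 1.39%) and 0.679% of a KPT member's (quartiles 0.456 and 0.900%). Of the 144 KP members 16 (11.1%) lay above the highest of the 54 KPT members, a barcode of 865 UMIs at 2.08%. The bulk of both libraries overlapped. Among members with at least 1000 UMIs the medians were 0.910% of 120 and 0.656% of 49. Of those 120 KP members, 11 (9.17%) lay above 2.08%. Barcodes of 1 library are not replicates, so no test was made.

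**Figure D4:**
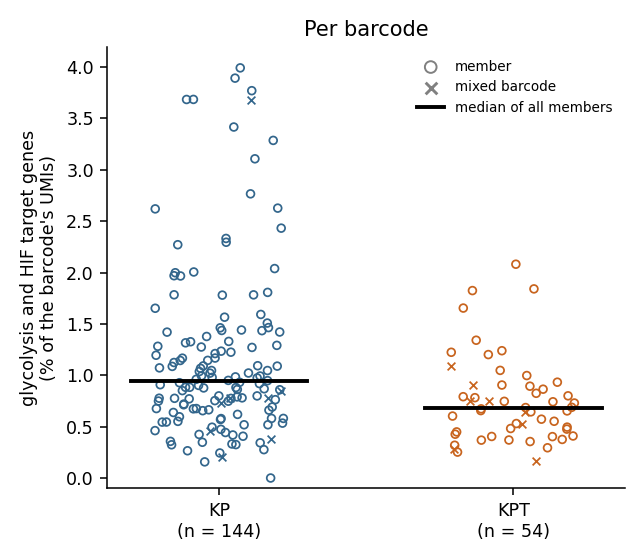
Each point is 1 member barcode, placed by library, with the percent of its UMIs in glycolysis and HIF target genes on the vertical axis; crosses are mixed barcodes and the black line is the median of all members. The medians are 0.940% in KP and 0.679% in KPT, and 16 KP points lie above the highest KPT point, at 2.08%.

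Promoter sequence of some of these genes is shown because the HIF complex is known to bind the letters ACGTG or GCGTG. RefSeq windows of the 250 bases before the start site (build GRCm38.p6) were found for 44 of the 48 genes of both lists. These letters, searched on both strands, were present for 41 of the 44, against 41.5% of 27025 RefSeq genes and 38.6% of all 32851 windows of that length. They were present for 10 of the 12 matched genes that were at least 1.5-fold lower in KPT and for 8 of the 9 that were not. The lower genes Mif and Tpi1 had none of the letters, and their windows are not printed. The first 4 windows below were picked from lower genes with the letters and overlap no GENCODE exon. That of Il1f9, the gene that defines these cells, has none of the letters. Capitals mark every match, and CACGTG holds a match on each strand. A match is a description of the letters, not a bound site.
Ldha (chr7:46845554-46845803, plus strand): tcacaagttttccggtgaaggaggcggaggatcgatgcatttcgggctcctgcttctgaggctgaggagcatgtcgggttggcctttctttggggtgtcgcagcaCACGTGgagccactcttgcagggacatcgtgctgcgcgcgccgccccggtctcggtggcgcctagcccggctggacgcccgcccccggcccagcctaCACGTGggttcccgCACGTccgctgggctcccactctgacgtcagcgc
Pgk1 (chrX:106186850-106187099, plus strand): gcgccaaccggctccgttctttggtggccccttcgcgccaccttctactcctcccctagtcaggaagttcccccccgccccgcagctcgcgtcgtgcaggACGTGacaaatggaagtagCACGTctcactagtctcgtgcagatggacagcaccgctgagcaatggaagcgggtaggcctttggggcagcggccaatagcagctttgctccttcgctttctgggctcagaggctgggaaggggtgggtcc
Pgam1 (chr19:41911621-41911870, plus strand): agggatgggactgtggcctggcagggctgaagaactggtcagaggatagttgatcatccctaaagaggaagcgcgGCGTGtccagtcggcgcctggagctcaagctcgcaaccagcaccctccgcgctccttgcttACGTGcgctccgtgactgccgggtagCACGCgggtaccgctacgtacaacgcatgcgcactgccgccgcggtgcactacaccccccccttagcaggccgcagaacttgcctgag
Egln3 (chr12:54203875-54204124, minus strand): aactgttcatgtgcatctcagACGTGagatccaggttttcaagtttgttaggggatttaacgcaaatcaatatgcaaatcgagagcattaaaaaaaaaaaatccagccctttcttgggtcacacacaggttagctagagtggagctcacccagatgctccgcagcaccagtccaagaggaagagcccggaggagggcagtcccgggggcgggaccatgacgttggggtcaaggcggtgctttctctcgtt
Il1f9 (chr2:24186226-24186475, plus strand): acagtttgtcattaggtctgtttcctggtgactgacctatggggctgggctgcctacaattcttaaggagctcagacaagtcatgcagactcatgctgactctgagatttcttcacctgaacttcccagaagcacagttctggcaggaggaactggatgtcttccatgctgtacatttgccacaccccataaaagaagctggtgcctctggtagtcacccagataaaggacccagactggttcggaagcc

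Genes of the IL-1 family stood on both sides of 1 once the mixed barcodes were left out. Il1f9, given as a description since the rule used it, stood at 2476 CPM in KP and 2313 CPM in KPT, a ratio of 0.934 (0.833 to 1.05), or 1.22 (1.08 to 1.38) without mixed barcodes. Il1a stood at 2293 and 1222 CPM, a ratio of 0.533 (0.460 to 0.616), or 0.745 (0.639 to 0.867) without mixed barcodes. Il1b had 0.892 (0.852 to 0.933), or 1.12 (1.06 to 1.17) without mixed barcodes, and so changed direction. Il1rn, the receptor antagonist that blocks IL-1 alpha and beta, had 0.943 (0.846 to 1.05), or 1.26 (1.12 to 1.41) without mixed barcodes. The decoy receptor Il1r2, which also belongs to the rule, had 0.910 (0.731 to 1.13), or 0.745 (0.563 to 0.974) without mixed barcodes. Myd88, the adaptor of IL-1 receptors, had 0.493 (0.259 to 0.884), or 0.685 (0.340 to 1.28) without mixed barcodes. Irak3, which dampens receptor signalling, had 0.425 (0.206 to 0.807), or 0.579 (0.271 to 1.13) without mixed barcodes. Over the list, 4 of 10 genes were at least 1.5-fold lower and 0 higher, where 11.4% of all genes were lower. The median log2 ratio was -0.29. Without the mixed barcodes 1 of 10 was lower, close to the 9.55% of all genes, and the median was -0.26.

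Chemokines and cytokines included genes on both sides. Cxcl3 stood at 3510.2 CPM in KP and 1404 CPM in KPT, found in 67 and 20 members, a ratio of 0.400 (0.350 to 0.456), or 0.542 (0.472 to 0.622) without mixed barcodes. In KPT 1 barcode held 46.4% of its UMIs, and without the fullest barcode of each library the ratio was lower still, 0.238. Cxcl2 was less far apart, 0.675 (0.657 to 0.693), or 0.831 (0.807 to 0.856) without mixed barcodes. Ccl3, a chemokine for monocytes and lymphocytes, stood the other way with 1.14 (1.07 to 1.21), or 1.32 (1.23 to 1.41) without mixed barcodes, and Ccl4, Cxcl10 and Csf1 are given above. Of 14 genes 2 were at least 1.5-fold higher and 5 lower, and 4 and 4 of 14 without the mixed barcodes. Among all genes 15.2% were higher and 11.4% lower, and 8.59% and 9.55% without the mixed barcodes. The median log2 ratios were 0.02 and 0.04. Slpi, which protects tissue from the neutrophils' own elastase and belongs to the rule, stood at 7048 and 4187 CPM, a ratio of 0.594 (0.549 to 0.643), or 0.879 (0.810 to 0.952) without mixed barcodes, and G0s2 had 1.04 (0.914 to 1.18), or 1.40 (1.23 to 1.60) without mixed barcodes. S100a8 and S100a9, the pair that forms calprotectin, stood at 29494 and 22126 CPM and 23919 and 21131 CPM. Their ratios were 0.750 (0.724 to 0.777) and 0.883 (0.851 to 0.917), or 0.800 (0.769 to 0.833) and 0.744 (0.711 to 0.778) without mixed barcodes.

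Genes known from tumour neutrophils gave a lower median that depended on the mixed barcodes. The median log2 ratio over 19 genes was -0.32, where 5 genes lay past 1.5-fold on the lower side and 1 on the higher. Without the mixed barcodes it was -0.06 over 18 genes, with 5 lower and 0 higher. The share of all genes on the lower side was 11.4%, and 9.55% without the mixed barcodes. Cd274, the checkpoint ligand PD-L1, stood at 655 CPM in KP and 318 CPM in KPT, a ratio of 0.485 (0.362 to 0.643), or 0.596 (0.433 to 0.806) without mixed barcodes, and was found in 31.8% and 38.6% of T cell barcodes against 52.1% and 53.7% of members. Spp1, osteopontin, had 0.412 (0.236 to 0.683), or 0.632 (0.355 to 1.07) without mixed barcodes. Cd14, a receptor part for bacterial lipopolysaccharide, had 0.801 (0.727 to 0.881), or 1.04 (0.940 to 1.16) without mixed barcodes. Ctsb and Cstb, a lysosomal protease and an inhibitor of such proteases, had 0.862 (0.710 to 1.04) and 0.687 (0.610 to 0.771), or 0.952 (0.765 to 1.18) and 0.908 (0.802 to 1.03) without mixed barcodes. Siglecf rested on 9 and 17 UMIs, a ratio of 3.48 (1.47 to 8.86), or 5.42 (2.08 to 15.7) without mixed barcodes. Of 7 eosinophil markers without Siglecf, Ccr3 and Ear2 had 5 UMIs in 4 KP members, while Prg2, Epx, Il5ra, Ear1 and Ear6 were at 0, and all 7 were at 0 in the KPT members. Their part in the result was not tested.

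For each list the median log2 ratio and the genes past 1.5-fold are given, first for all members and then without the mixed barcodes, to be read against 15.2% higher and 11.4% lower among all genes for the first and 8.59% and 9.55% for the second. AP-1 and immediate early genes had 0.16 over 21 genes (6 higher, 0 lower) and 0.23 over 19 (4 higher, 0 lower) without. Junb, a subunit of AP-1, had a ratio of 0.909 (0.818 to 1.01), or 0.887 (0.783 to 1.0) without mixed barcodes. Klf2, a zinc finger factor that restrains myeloid activation, had 1.12 (1.01 to 1.23), or 1.29 (1.16 to 1.44) without mixed barcodes. The most extreme ratios were those of Nr4a3, an orphan nuclear receptor, at 3.38 (1.85 to 6.37), or 1.52 (0.585 to 3.70) without mixed barcodes, and Egr2, an early growth response factor, at 2.63 (1.46 to 4.83), or 2.40 (1.21 to 4.74) without mixed barcodes. NF-kB response genes had -0.03 over 21 genes (1 higher, 5 lower) and 0.05 over 21 (4 higher, 0 lower) without. Nfkbia, the inhibitor that NF-kB induces, had 0.661 (0.617 to 0.708), or 0.770 (0.713 to 0.831) without mixed barcodes, and Sod2, the mitochondrial superoxide dismutase, 0.557 (0.452 to 0.682), or 0.735 (0.589 to 0.910) without mixed barcodes. Iron and oxidative defence genes had -0.27 over 22 genes (0 higher, 4 lower) and 0.07 over 22 (2 higher, 1 lower) without. Fth1 had 0.640 (0.624 to 0.657), or 0.847 (0.824 to 0.871) without mixed barcodes. Ftl1, the ferritin light chain, had 0.802 (0.770 to 0.836), or 1.06 (1.02 to 1.11) without mixed barcodes, and Slc7a11, the cystine importer, 0.723 (0.655 to 0.796), or 0.928 (0.838 to 1.03) without mixed barcodes. Endoplasmic reticulum stress genes had -0.21 over 9 genes (0 higher, 2 lower) and -0.02 over 8 (0 higher, 1 lower) without.

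Survival and p53 target genes had -0.42 over 16 genes (1 higher, 4 lower) and -0.07 over 16 (1 higher, 1 lower) without. Gadd45a, a stress gene induced by p53 that has also been linked to DNA demethylation, was low with or without the mixed barcodes. It stood at 302 CPM in KP and 126 CPM in KPT, a ratio of 0.419 (0.260 to 0.651), or 0.409 (0.225 to 0.697) without mixed barcodes. Ninj1, which ruptures the membrane of dying cells, had 0.561 (0.474 to 0.662), or 0.722 (0.601 to 0.862) without mixed barcodes. Mcl1, on which neutrophil survival depends, had 0.799 (0.714 to 0.892), or 0.977 (0.867 to 1.10) without mixed barcodes. Of 19 genes of cytosine demethylation only Gadd45a and Tet2, an enzyme that oxidises methylcytosine, reached 50 UMIs, and Tet2 had 0.796 (0.414 to 1.47), or 0.632 (0.268 to 1.34) without mixed barcodes.

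Of the other groups, neutrophil receptors and adhesion genes had -0.22 over 28 genes (0 higher, 5 lower) and 0.03 over 28 (1 higher, 2 lower) without. Clec4e, a receptor for damaged cells, had 0.641 (0.587 to 0.699), or 0.872 (0.795 to 0.955) without mixed barcodes, and Gpr84, a receptor for medium-chain fatty acids, 0.601 (0.384 to 0.916), or 0.731 (0.444 to 1.16) without mixed barcodes. Class I presentation genes had 0.32 over 8 genes (1 higher, 0 lower) and 0.17 over 6 (0 higher, 1 lower) without, interferon gamma response genes 0.08 over 8 genes (3 higher, 1 lower) and -0.06 over 7 (2 higher, 2 lower) without, and type I interferon genes -0.19 over 7 genes (1 higher, 2 lower) and -0.01 over 6 (0 higher, 2 lower) without. B2m, the class I light chain, had 1.21 (1.10 to 1.34), or 1.23 (1.10 to 1.38) without mixed barcodes. Nuclear genes of oxidative phosphorylation had 0.06 over 20 genes (4 higher, 0 lower) and -0.03 over 15 (1 higher, 2 lower) without. Lysosome and protease genes had -0.07 over 18 genes (3 higher, 2 lower) and -0.07 over 13 (1 higher, 0 lower) without, lipid handling genes -0.42 over 11 genes (1 higher, 4 lower) and 0.22 over 7 (0 higher, 2 lower) without, and checkpoint and suppression genes 0.14 over 11 genes (2 higher, 3 lower) and -0.03 over 10 (1 higher, 1 lower) without. Granule protein genes were mostly too low, with 4 of 18 measured. They had -0.59 over 4 genes (0 higher, 2 lower) and 0.10 over 4 (0 higher, 1 lower) without.

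The other neutrophil barcodes gave values for the same lists, and no difference between the sets was tested. The median log2 ratio of glycolysis genes was -0.66 in the members, -1.33 in neutrophils with Retnlg or Stfa2l1 and -0.39 in those with neither, and -0.68, -0.93 and -0.27 without the mixed barcodes of each set. At least 1.5-fold lower were 6 of 11, 12 of 13 and 1 of 14 genes, and 7 of 11, 11 of 13 and 4 of 13 without the mixed barcodes. In neutrophils with Retnlg or Stfa2l1 15.6% of all genes were lower and 20.7% higher (17.4% and 15.7% without the mixed barcodes). In those with neither 10.7% were lower and 10.6% higher (14% and 9.99% without). For HIF targets outside glycolysis it was -0.60 in the members, -1.13 in neutrophils with Retnlg or Stfa2l1 and -0.35 in those with neither, and -1.01, -1.21 and -0.63 without them. Ldha had a ratio of 0.415 (0.301 to 0.562) in the members, 0.381 (0.288 to 0.498) in neutrophils with Retnlg or Stfa2l1 and 0.849 (0.712 to 1.01) in those with neither. Both lists had medians below 0 in all 3 sets. IL-1 family genes had medians of -0.29 in the members, 0.14 in neutrophils with Retnlg or Stfa2l1 and 0.10 in those with neither, and -0.26, 0.79 and 0.35 without the mixed barcodes. Il1a, below 1 in the members, had 1.72 (1.46 to 2.03) and 1.36 (1.21 to 1.52) in the other sets. Cxcl3 was below 1 in each, at 0.400 (0.350 to 0.456), 0.476 (0.419 to 0.538) and 0.587 (0.514 to 0.668).

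**Figure D5:**
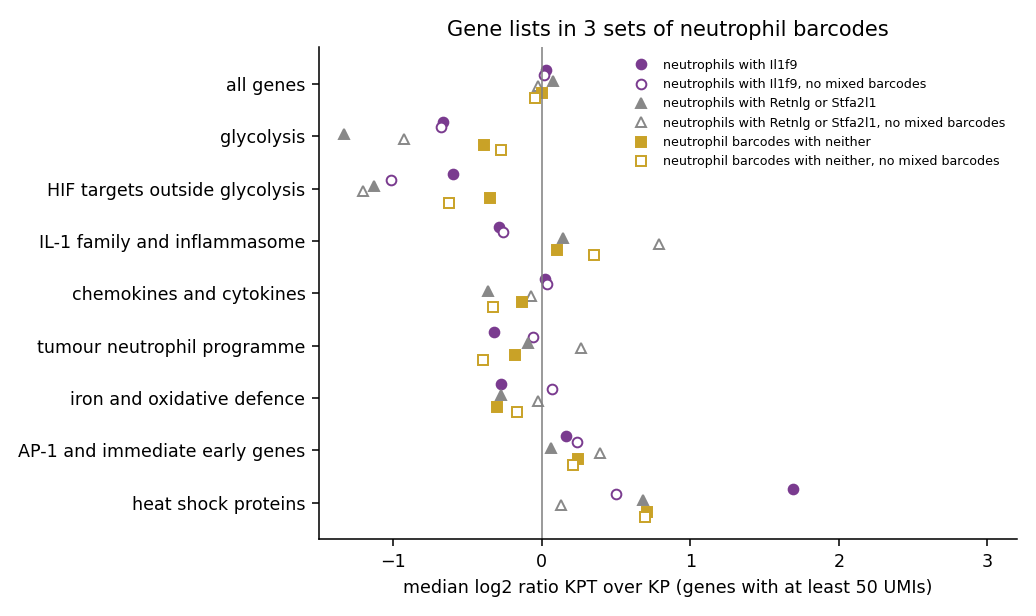
Points are the median log2 ratio KPT over KP of genes with at least 50 UMIs, by gene list (rows) and set of neutrophil barcodes (circles, triangles and squares), filled for all barcodes and open without the mixed ones. Glycolysis and HIF targets lie below 0 in all 3 sets, and the heat shock list of the neutrophils with Il1f9 moves from 1.69 to 0.50.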

How the data were processed

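Single-cell RNA was measured in 2 libraries, 1 per group. The authors deposited whole UMI counts for every gene and barcode, not normalized, from Cell Ranger 6.0.1 per the file headers. Seurat and the build mm10 stand beside Cell Ranger in the submitters' processing notes, and the annotation is not given in the sources used here. KP held 5604 barcodes and 39819010 UMIs, KPT 5896 and 52586319. Of these, 5504 and 5693 passed the filter of at least 200 genes and at most 10% mitochondrial UMIs. Entries sharing a symbol were summed, from 32285 to 32245 symbols. The libraries shared 8 barcode sequences, none of them a member. No doublet caller was run and no doublet removed.

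Counts were summed over members and scaled to a total of 1000000. Gene ratios have exact conditional Poisson 95% intervals, shares exact Clopper-Pearson ones and ratios of shares log-normal ones. Of these, only the intervals of gene ratios were checked on simulated counts. Molecules of 1 library are not replicates, so intervals cover counting error only. The members, gene lists and limits were chosen with earlier results of these data known, and the mixed-barcode alternative after the data were seen. Named by rule were the 12 genes each way whose interval bound nearest to 1 lay farthest from it (at least 50 UMIs and 5% of members in the higher library), without mitochondrial, ribosomal, haemoglobin, sex-linked, receptor, unnamed and rule genes. A repeat without the mixed barcodes named 12 each way, and the 12 genes most above and most below neutrophils with Retnlg or Stfa2l1 in both libraries described the programme. Some lists add members with most UMIs or with the most extreme ratios, and others are given without a named gene. Outside the rule, and chosen after their values were seen, were the remaining glycolysis genes, Bnip3, Bnip3l, Vegfa, Hif1a, Siglecf, the 6 neutrophil markers outside the membership rule and the promoters printed. Other settings changed the rule, the filter, the weighting, the total, the UMI minimum and the fold. Python 3.11.15, numpy 2.4.6, scipy 1.17.1, pandas 2.3.3 and matplotlib 3.10.9 were used.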

Additional observations from a re-analysis of the deposited data

Results flagged for a closer look

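Opposite directions were sought among 52 followed genes, most of them named for their ratio between the libraries, and not among all genes. In 4 of the 52 the members and the neutrophils with Retnlg or Stfa2l1 differed between the libraries in opposite directions. Each of these differences lay beyond counting error with and without the mixed barcodes. The difference between the 2 sets was not tested, and each rests on 1 library per group. Cxcl10 had a ratio of 1.69 in the members and 0.255 in the other set (0.262 without the mixed barcodes), where it had 107 UMIs in KP and 11 in KPT. Cxcl10 was detected in 15 KP and 7 KPT members, and 1 barcode held 69.5% and 62.0% of its UMIs there. Cybb had 0.460 and 3.13 (2.08 without). Il1a had 0.533 and 1.72 (1.89 without). Slpi, a gene of the rule, had 0.594 and 1.14 (1.61 without).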

How the results depend on the processing

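With 1 library per group no replicate could be left out. No paired analysis was possible because each group has a single library and the results come from no test. The 198 members limit every gene to their 364653 KP and 198006 KPT UMIs. Of 102 summary values under other settings, 85 stayed close to the reported value (counts within 1.5 times, others within its 95% interval, for list medians one over genes), 15 moved further and 2 turned. Of 623 gene ratios 416 lay within the interval, 187 moved and 20 turned. After thinning Cstdc4 gave no value.

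The share ratio stayed between 0.320 (rule applied after thinning to 1000 UMIs) and 0.407 (at least 500 genes and at most 5% mitochondrial UMIs), except with neutrophil barcodes as the denominator, where it was 1.16. The 216 higher genes became 135 with at least 2 Il1f9 UMIs, 143 without the 5% deepest members, 98 without the mixed barcodes, 49 after thinning to 1000 UMIs, 611 and 65 at minimums of 20 and 200 UMIs, and 83 at 2-fold. The 162 lower genes became 51, 402, 47 and 51 under the last 4. Thinning and a minimum of 200 UMIs leave fewer genes and a minimum of 20 more. The cause was not tested. Leaving mitochondrial and ribosomal UMIs out of the total gave 251 higher and 132 lower. The glycolysis median ran from -0.79 to -0.41 and that of HIF targets from -1.02 to -0.05 (3 genes at a minimum of 200 UMIs). The IL-1 median was -0.0655 with at least 2 Il1f9 UMIs and 0.0673 after thinning. The tumour neutrophil median was -0.61 with at least 5 of the 7 neutrophil genes, -0.0571 without the mixed barcodes and -0.0660 with every member weighted equally.

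Gene ratios crossed 1 as follows, and the causes were not tested. Without the mixed barcodes: Hspa1a 0.361, Xcl1 0.281, Cd74 0.960, Dnajb1 0.972, Ccl5 0.722 and Il1b 1.12. With at least 2 Il1f9 UMIs: Hspa1a 0.698, Ccl5 0.493, Il1b 1.08, S100a8 1.03 and S100a9 1.21. With at least 5 of the 7 genes: Ccl4 0.855, Tnf 0.985 and Il1b 1.11. Without the 5% deepest members: H2-Ab1 0.744, Cd74 0.921 and Lyz2 1.02. Without the fullest barcode of each gene: Hspa1a 0.614 and Ccl5 0.650. With the stricter filter: S100a9 1.09.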
